A study of Homo sapiens with 15 samples.

Results

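UBQLN2, UBQLN1 and UBQLN4 encode ubiquilins, a family of ubiquitin-binding shuttle proteins. UBQLN2 was selected because its transcript was nearly lost after PRMT5 knockout in these same libraries, and the paralogs UBQLN1 and UBQLN4 were taken for comparison, which gave 3 of the 60649 genes in each count table. HSC-5, a line of human cutaneous squamous cell carcinoma that had been made to express Cas9, was infected with lentiviral sgRNAs and analysed by RNA-seq in 5 groups of 3 libraries. The groups were sgNeg, an empty vector control labelled wild type, sgPRMT5-1 and sgPRMT5-2, labelled PRMT5 knockout, and sgWDR77-1 and sgWDR77-2, labelled WDR77 knockout, and neomycin is the labelled treatment of every library. PRMT5KO and WDR77KO below each join the 6 libraries of both sgRNAs of a gene, and both were compared with the same sgNeg libraries. Reads on genes ranged from 5146711 to 6730428 per library. The labels call the replicates biological without stating separate cultures, so the p-values measure the spread between these libraries, which may be technical.

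Ubiquilins carry an amino-terminal ubiquitin-like domain that docks on the proteasome and a carboxy-terminal ubiquitin-associated domain that holds ubiquitinated clients. Between them, stretches that bind hydrophobic segments keep misfolded or untargeted membrane proteins soluble until they are degraded or inserted. UBQLN2 is an intronless gene on the X chromosome in which mutations cause amyotrophic lateral sclerosis with frontotemporal dementia. UBQLN1 and UBQLN4 are made in most tissues.

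The targeted genes were read first as a check of the labels. PRMT5, an arginine methyltransferase, had 59.1, 49.6 and 67.8 CPM (counts at a common library size, set by the trimmed mean of M values) in sgNeg, 33.0, 35.8 and 41.4 in sgPRMT5-1, and 44.1, 44.5 and 39.4 in sgPRMT5-2. WDR77, the WD40 partner of PRMT5, had 125, 114 and 119 CPM in sgNeg, 30.8, 52.0 and 53.3 in sgWDR77-1, and 26.6, 24.9 and 22.0 in sgWDR77-2. Every library labelled as a knockout was thus below all 3 sgNeg libraries for its own target, by log2 fold changes of -0.57 for PRMT5 in PRMT5KO (SE 0.119, 6 of 6 libraries, adjusted p = 0.00874) and -1.86 for WDR77 in WDR77KO (SE 0.216, 6 of 6, adjusted p = 9e-05) with limma voom and Benjamini-Hochberg adjustment. Transcripts persist after many edits of a gene, so these values do not measure the proteins.

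The line carried the markers of squamous keratinocytes. All 10 listed markers were detected, KRT17 was the most abundant, and their summed level was 3190 to 3688 CPM in sgNeg, 3298 to 3553 with sgPRMT5-1, 3129 to 3262 with sgPRMT5-2, 2763 to 2987 with sgWDR77-1 and 3587 to 3655 with sgWDR77-2. Of the 9 tested, limma voom called 2 higher and 3 lower (KRT5, KRT6A and DSG3) in PRMT5KO, where 17.0% of all tested genes were called. In WDR77KO, where 3.39% were called, the same 3 were lower and 0 were higher, as with limma-trend, and 4 of the 9 had an unadjusted limma voom p under 0.05. KRT5, KRT6A and DSG3 had log2 fold changes of -2.41, -2.66 and -0.70 in PRMT5KO and -3.42, -2.92 and -0.82 in WDR77KO. With sgWDR77-2 alone, where 4.97% were called, limma voom also called KRT17 (0.82, adjusted p = 1.23e-05) and SFN (0.33, 0.0404) higher. There limma-trend called 1 marker higher. The 4 immune markers summed to 0 in sgNeg and to at most 0.555 CPM in any library, with CD68 the most abundant and CD3E at 0 throughout. The 6 fibroblast markers summed to 11.4 to 15.1 CPM in sgNeg and 6.68 to 11.3 with sgPRMT5-2, with COL1A1 the most abundant and COL1A2 at 0. Only COL1A1 was tested, and in PRMT5KO neither tool called it, with an unadjusted limma voom p under 0.05. With sgPRMT5-2 alone, where 40.1% of all tested genes were called, both tools called COL1A1 lower (-0.66, adjusted p = 0.0142 by limma voom). The 3 endothelial markers summed to 16.6 to 24.9 CPM in sgNeg and 31.3 to 36.1 in sgWDR77-1, with CDH5 the most abundant. The 4 melanocyte markers summed to 4.72 to 6.08 CPM in sgNeg, with PMEL the most abundant and TYR and DCT at 0. In PRMT5KO limma voom called 1 of 2 tested endothelial markers lower (VWF, adjusted p = 0.0181) and 1 of 2 tested melanocyte markers lower (PMEL, 0.0391), and limma-trend called VWF alone. In WDR77KO both tools called 0 of these 4, and 0 had an unadjusted limma voom p under 0.05, though with sgWDR77-1 alone CDH5 was called higher by both (0.83, adjusted p = 0.0271 by limma voom). The markers given by name with a call were chosen after their values were seen. In bulk RNA, fewer cells of a kind and less RNA per cell cannot be told apart, and the part of any marker shift in the ubiquilin values was not tested.

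In GENCODE v44 on GRCh38, UBQLN2 (ENSG00000188021.9) lies on the plus strand of chromosome X from 56563627 to 56567868 and consists of 1 exon of 4242 bases. The paralogs are minus-strand genes, UBQLN1 (ENSG00000135018.14) at 83659968 to 83707958 on chromosome 9 and UBQLN4 (ENSG00000160803.8) at 156035299 to 156053798 on chromosome 1, each with 11 exons in the main transcript. The coding sequences are alike, with 80.3% identical bases between UBQLN2 and UBQLN1, 70.5% between UBQLN2 and UBQLN4, and 68.3% between UBQLN1 and UBQLN4. A read of 76 bases could therefore be misplaced if any stretch of that length were shared. None of the 4167 words of 76 bases in the UBQLN2 transcript, and none of the 3793 in UBQLN1, occurred in another gene named for this family, whereas 698 of the 3507 words of UBQLN4 also occurred in the pseudogene UBQLN4P1. Error-free reads of UBQLN2 and UBQLN1 can thus be told apart by sequence, while the UBQLN4 counts are less certain. UBQLN1 overlaps the antisense gene UBQLN1-AS1 at its 5′ end, and because the strand setting of the counting is not given in the sources used here, reads of that overlap are uncertain too.

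UBQLN2 was a low transcript in the control. The sgNeg libraries held 30, 15 and 23 UBQLN2 counts, which were 5.08, 2.47 and 4.17 CPM. In sgPRMT5-1 the libraries held 2, 2 and 0 counts, or 0.306, 0.340 and 0 CPM, and each of the 3 sgPRMT5-2 libraries held 0. The WDR77 libraries lay between, with 12, 6 and 5 counts in sgWDR77-1 (2.22, 1.11 and 0.912 CPM) and 7, 3 and 8 counts in sgWDR77-2 (1.35, 0.530 and 1.44 CPM). No knockout library reached the lowest sgNeg library, and no PRMT5 library reached the lowest WDR77 library. The mean level was ordered from sgNeg (3.91 ± 1.33 CPM, SD, n = 3) through sgWDR77-1 (1.41 ± 0.703) and sgWDR77-2 (1.11 ± 0.501) to sgPRMT5-1 (0.215 ± 0.187) and sgPRMT5-2 (0). In that order sgWDR77-1 overlapped sgWDR77-2 and sgPRMT5-1 overlapped sgPRMT5-2, whereas sgNeg stood clear of sgWDR77-1, and sgWDR77-2 stood clear of sgPRMT5-1.

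Since UBQLN2 was chosen on the PRMT5 knockout, its difference there is a description and carries no test. Summed over a group, 68 UBQLN2 counts in sgNeg (95% Poisson interval 52.8 to 86.2) stood against 4 in sgPRMT5-1, a level 17.8-fold lower in CPM (95% interval 6.62 to 67.0). The 0 counts of sgPRMT5-2 give no measured fold. With a floor of 3 counts over the group in their place, its level was 23.6-fold lower than sgNeg. The interval covers counting error only. The floor value is not a 95% bound, since it leaves out the counting error of sgNeg and the upper 95% limit for 0 counts is 3.69. For PRMT5KO the limma voom estimate of the log2 fold change was -4.77, and limma-trend gave -3.30, a value that depends on what is added to counts of 0.

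The WDR77 libraries played no part in the choice of UBQLN2, but the sgNeg libraries did, so its difference from sgNeg carries no test here either. Relative to sgNeg, UBQLN2 was 2.75-fold lower in sgWDR77-1 by summed counts (95% interval 1.69 to 4.63, counting error only) and 3.54-fold lower in sgWDR77-2 (2.08 to 6.33). The limma voom estimate of the log2 fold change was -1.61 in WDR77KO, -1.41 in sgWDR77-1 and -1.80 in sgWDR77-2, and all 6 libraries were below all of sgNeg. Over the alternatives these estimates lay at -1.91 to -1.39, -1.78 to -1.17 and -2.09 to -1.35.

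**Figure D1:**
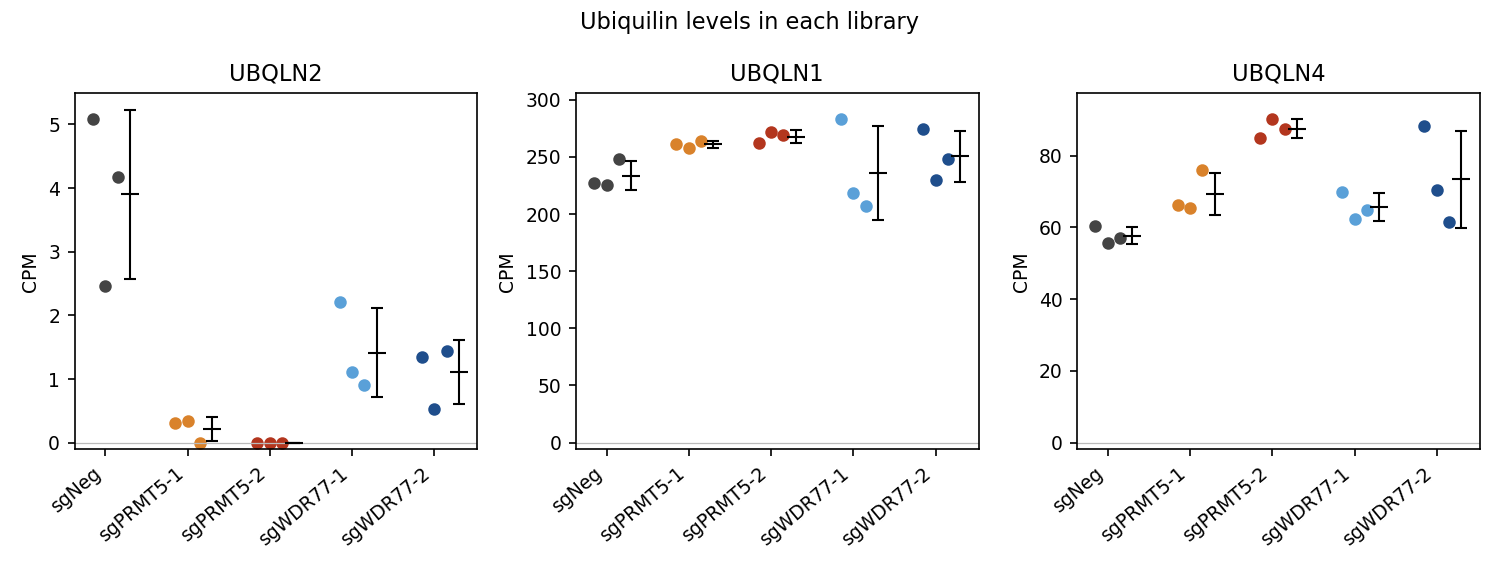
CPM of UBQLN2, UBQLN1 and UBQLN4 (a panel each, vertical axes from 0) in the 3 libraries of each of the 5 groups, with points for libraries and black marks for the mean ± SD (n = 3). UBQLN2 goes from 2.47 to 5.08 CPM in sgNeg to 0 in each sgPRMT5-2 library, while UBQLN1 keeps to 207 to 283 CPM and UBQLN4 to 55.7 to 90.1 CPM.

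UBQLN1, the most abundant of the paralogs, had 1340, 1371 and 1369 counts in sgNeg, 1708, 1519 and 1540 in sgPRMT5-1, and 1684, 1601 and 1592 in sgPRMT5-2. It had 1531, 1179 and 1135 counts in sgWDR77-1 and 1424, 1299 and 1378 in sgWDR77-2. In CPM these were 227, 225 and 248 in sgNeg, 261, 258 and 264 with sgPRMT5-1, 262, 272 and 269 with sgPRMT5-2, 283, 218 and 207 with sgWDR77-1, and 274, 229 and 248 with sgWDR77-2. The 6 PRMT5 libraries were above all of sgNeg by a small margin, and the WDR77 libraries spread to both sides of it. By mean, sgPRMT5-2 (268 ± 5.36 CPM, SD, n = 3) came first, followed by sgPRMT5-1 (261 ± 2.91), sgWDR77-2 (251 ± 22.5), sgWDR77-1 (236 ± 40.9) and sgNeg (234 ± 12.9), and each group overlapped the next.

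UBQLN1 was not lower where UBQLN2 was nearly absent. In PRMT5KO, where 17.0% of tested genes were called, UBQLN1 had a log2 fold change of 0.17 (SE 0.0615, 95% interval 0.04 to 0.30, higher in 6 of 6 libraries) that did not pass limma voom with Benjamini-Hochberg adjustment (adjusted p = 0.0746). It passed under upper quartile scaling alone (0.20, adjusted p = 0.0318), in a range of 0.0318 to 0.230. With sgPRMT5-2 alone, where 40.1% of tested genes were called, UBQLN1 rose by a log2 fold change of 0.19 (SE 0.0670, 3 of 3 libraries, adjusted p = 0.0275, limma voom). This call ended with library totals alone (0.11, adjusted p = 0.163), in a single fit over the 15 libraries (0.139), without sgNeg replicate 1 (0.0547) and without sgPRMT5-2 replicate 2 (0.0644), in a range of 0.00873 to 0.163. With sgPRMT5-1 alone the log2 fold change was 0.15 (SE 0.0797, 3 of 3 higher, adjusted p = 0.329, limma voom), with 3.76% of tested genes called. In WDR77KO, where 3.39% of tested genes were called, it was 0.05 (SE 0.107, 95% interval -0.17 to 0.28, adjusted p = 0.874, limma voom), with 2 of 6 libraries above all of sgNeg and 2 below. For the single WDR77 sgRNAs it was 0.03 in sgWDR77-1 (SE 0.133, adjusted p = 0.926) and 0.09 in sgWDR77-2 (SE 0.0871, adjusted p = 0.60) with limma voom, which called 2.71% and 4.97% of tested genes.

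UBQLN4, which binds other ubiquilins and ubiquitinated clients, had 356, 339 and 314 counts in sgNeg, 434, 386 and 444 in sgPRMT5-1, and 546, 530 and 517 in sgPRMT5-2. It had 378, 336 and 356 counts in sgWDR77-1 and 458, 399 and 342 in sgWDR77-2. In CPM the libraries lay at 60.3, 55.7 and 57.0 in sgNeg, 66.3, 65.5 and 76 with sgPRMT5-1, 84.9, 90.1 and 87.5 with sgPRMT5-2, 69.8, 62.2 and 65.0 with sgWDR77-1, and 88.2, 70.5 and 61.6 with sgWDR77-2. All 12 knockout libraries were thus above all 3 sgNeg libraries. The mean was highest in sgPRMT5-2 (87.5 ± 2.61 CPM, SD, n = 3), then sgWDR77-2 (73.4 ± 13.6), sgPRMT5-1 (69.3 ± 5.85), sgWDR77-1 (65.7 ± 3.86) and sgNeg (57.6 ± 2.36). Only sgNeg stood clear of its neighbour in this order.

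UBQLN4 rose in PRMT5KO with a log2 fold change of 0.42 (SE 0.116, 95% interval 0.17 to 0.67, 6 of 6 libraries higher, adjusted p = 0.0275, limma voom with Benjamini-Hochberg adjustment). Of all tested genes 17.0% were called there, with 8.73% called higher. The adjusted p of UBQLN4 ranged from 0.00359 to 0.111 over the alternatives. The call was lost with the replicate number as a block (0.0511), without each sgNeg library in turn (0.0934, 0.111 and 0.0962), without sgPRMT5-1 replicate 3 (0.0508) and without each sgPRMT5-2 library (0.0562, 0.0567 and 0.0546). With sgPRMT5-2 alone the rise was 0.59 (SE 0.0822, 3 of 3, adjusted p = 1.04e-05, limma voom), and it was called under every alternative, with adjusted p from 1.87e-06 to 0.000411. A call was common there, with 40.1% of all tested genes called and 20.9% called higher. With sgPRMT5-1 alone the log2 fold change was 0.25 (SE 0.105, 3 of 3 higher, adjusted p = 0.214, limma voom). In WDR77KO it was 0.26 (SE 0.119, 95% interval 0.01 to 0.51, 6 of 6 higher, adjusted p = 0.293, limma voom), so the higher level there did not pass the test. It was 0.22 in sgWDR77-1 (SE 0.119, 3 of 3 higher, adjusted p = 0.372) and 0.32 in sgWDR77-2 (SE 0.124, 3 of 3 higher, adjusted p = 0.15) with limma voom.

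**Figure D2:**
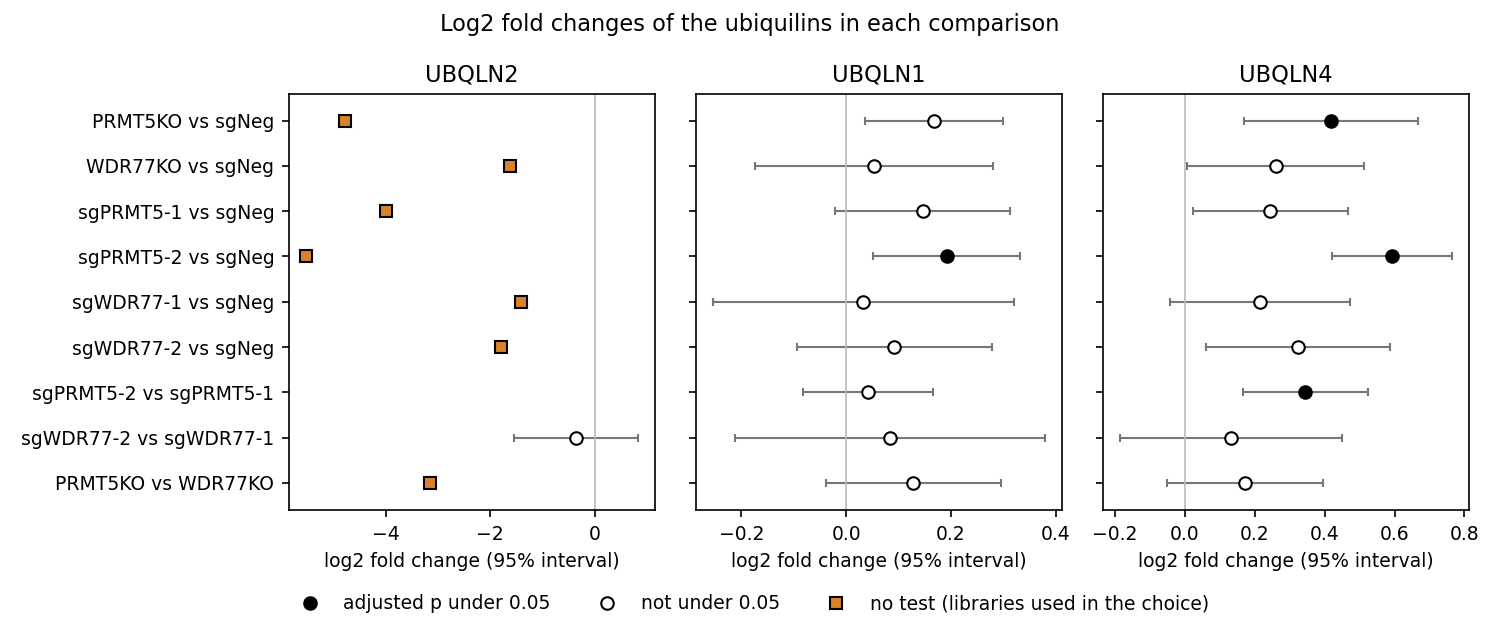
Log2 fold changes (horizontal axis) of the ubiquilins in 9 comparisons (rows), with 95% intervals; filled circles have an adjusted p under 0.05 by limma voom, open circles do not, and orange squares are UBQLN2 values without a test or interval because the choice of UBQLN2 used the PRMT5 and sgNeg libraries. UBQLN2 lies at -4.77 in PRMT5KO and -1.61 in WDR77KO, whereas UBQLN1 and UBQLN4 lie between 0.03 and 0.59 in all comparisons shown.

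The sgRNAs of a gene were also set against each other, without sgNeg. UBQLN4 was higher in sgPRMT5-2 than in sgPRMT5-1 by a log2 fold change of 0.34 (SE 0.0859, 3 of 3 libraries above all of sgPRMT5-1, adjusted p = 0.00770, limma voom), where 19.2% of tested genes were called. The call was lost without sgPRMT5-2 replicate 2 (0.0578) and in a single fit over the 15 libraries (0.0630), in a range of 2.69e-05 to 0.0630. UBQLN1 did not differ detectably between these sgRNAs (0.04, SE 0.0599, adjusted p = 0.666, limma voom), and UBQLN2 had too few counts to be tested. Between sgWDR77-2 and sgWDR77-1, where 0.121% of tested genes were called, the ubiquilins did not pass limma voom, with log2 fold changes of -0.36 for UBQLN2 (SE 0.551, adjusted p = 0.814), 0.08 for UBQLN1 (SE 0.137, adjusted p = 0.827) and 0.13 for UBQLN4 (SE 0.148, adjusted p = 0.735). Between the knockouts, where 14.0% of tested genes were called, PRMT5KO differed from WDR77KO by 0.13 for UBQLN1 (SE 0.0794, adjusted p = 0.277) and by 0.17 for UBQLN4 (SE 0.106, adjusted p = 0.278), and neither passed limma voom. For UBQLN2 the same difference was -3.14 by limma voom and -1.82 by limma-trend, with no test because of its choice on PRMT5KO, and 6 of 6 PRMT5KO libraries were below all of WDR77KO.

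Levels of different genes were compared per kilobase of the main transcript. In sgNeg, UBQLN1 was at 60.4 ± 3.32 CPM per kilobase (SD, n = 3), UBQLN4 at 16.1 ± 0.658 and UBQLN2 at 0.921 ± 0.313. On this scale the UBQLN1 level was 65.6 times that of UBQLN2 and 3.75 times that of UBQLN4, or 36.9 and 2.29 times with the length of all annotated exons. UBQLN2 was thus a minor part of the ubiquilin mRNA before any knockout. It made up 0.781% to 1.56% of the summed level of the 3 genes per kilobase in the sgNeg libraries (1.22% to 2.41% with the length of all annotated exons), 0.299% to 0.561% with sgWDR77-1, 0.158% to 0.416% with sgWDR77-2, 0% to 0.0941% with sgPRMT5-1 and 0% with sgPRMT5-2. The summed level itself was 77.4 ± 3.40 CPM per kilobase in sgNeg (SD, n = 3), 86.8 ± 2.28 with sgPRMT5-1, 93.6 ± 2.10 with sgPRMT5-2, 79.7 ± 11.7 with sgWDR77-1 and 85.5 ± 9.0 with sgWDR77-2. UBQLN1 held 78.0% of the mean sum in sgNeg and 73.9% in sgPRMT5-2, and UBQLN4 held 20.8% and 26.1%.

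The related gene UBQLNL was nearly silent. It had 0 counts in each sgNeg library and 4, 1 and 4 with sgPRMT5-1, 0, 2 and 4 with sgPRMT5-2, 3, 1 and 1 with sgWDR77-1, and 1, 1 and 2 with sgWDR77-2. UBQLNL did not reach the mean of 3 normalized counts required for a test, whereas the 3 ubiquilins above reached it in every comparison except UBQLN2 between the PRMT5 sgRNAs.

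UBQLN2 lies near the centromere of chromosome X, and its neighbours there were measured in the same libraries. Of the 10 tested genes nearest to it, 5 on each side, limma voom called 1 lower in PRMT5KO and 0 in WDR77KO, where it called 17.0% and 3.39% of all tested genes, with median log2 fold changes of -0.27 and 0.01. In WDR77KO limma-trend also called 0 of them, and 2 had an unadjusted limma voom p under 0.05. The gene called in PRMT5KO was NBDY, which encodes a microprotein that binds the mRNA decapping complex and starts 166 kb beyond the UBQLN2 start. NBDY held 12, 6 and 11 counts in sgNeg, 2, 0 and 3 with sgPRMT5-1, 2, 0 and 1 with sgPRMT5-2, 6, 3 and 1 with sgWDR77-1, and 3, 3 and 1 with sgWDR77-2. Its counts were thus lowest with the PRMT5 sgRNAs and intermediate with the WDR77 sgRNAs. NBDY fell in PRMT5KO with a log2 fold change of -2.83 (SE 0.583, 6 of 6 libraries lower, adjusted p = 0.00847, limma voom), and the call was made under each of the 16 alternatives that tested it, with adjusted p up to 0.0432. A mean of at least 10 normalized counts left NBDY out. NBDY passed the filter on low counts only through its sgNeg level, so a tested gene of this kind had to be lower in PRMT5KO, and the call supports little by itself. Without that filter NBDY was called as well. In WDR77KO its log2 fold change was -1.64 (SE 0.493, adjusted p = 0.0885, limma voom), and it passed only without sgWDR77-1 replicate 1 (-1.86, adjusted p = 0.0485), in a range of 0.0485 to 0.295. With single sgRNAs the log2 fold change of NBDY was -2.64 with sgPRMT5-1 and -3.04 with sgPRMT5-2, under the same limit. With sgPRMT5-2, where 40.1% of all genes were called, limma voom also called the deubiquitinase gene USP51 (-0.98, adjusted p = 0.0235) lower and the DNA repair gene APEX2 higher (0.33, 0.0435). With sgWDR77-2 limma voom and limma-trend called 0 of the 10, with 1 at an unadjusted limma voom p under 0.05. Chromosome X as a whole had no common shift. Among its 432 tested genes other than UBQLN2, with the neighbours included, 41 were called higher and 33 lower in PRMT5KO. Their median was -0.01, the same as over all 14071 tested genes (-0.01).

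The genes around UBQLN2 with few counts were then summed over an interval chosen after the values had been seen, so these sums carry no test. The interval of 7.73 Mb runs between USP51 and LINC01278, the nearest genes with a mean of at least 10 counts, and spans the centromere. It holds 36 annotated genes, of which 9 other than UBQLN2 had any count. Together these 9 genes had 72 counts in sgNeg, 15 with sgPRMT5-1, 3 with sgPRMT5-2, 26 with sgWDR77-1 and 19 with sgWDR77-2. Of the 15 counts with sgPRMT5-1, 9 were in replicate 3, against 4 and 2 in the others. UBQLN2 itself had 68, 4, 0, 23 and 18 counts in the same groups, so both followed the same order. In CPM, the 9 genes were 5.01-fold lower than sgNeg with sgPRMT5-1 (95% interval 2.85 to 9.41), 25.0-fold lower with sgPRMT5-2 (8.22 to 124), 2.58-fold lower with sgWDR77-1 (1.63 to 4.21) and 3.55-fold lower with sgWDR77-2 (2.12 to 6.24). These intervals cover counting error only. The value for sgPRMT5-1 was 8.74-fold over the protein-coding genes alone (4.19 to 21.1) and 8.53-fold without its replicate 3 (3.73 to 24.0), and sgPRMT5-2 was 48.5-fold lower without its replicate 1 (8.43 to 1942). Without NBDY the sums were 43, 10, 0, 16 and 12 counts. With a floor of 3 counts over the group in place of 0, sgPRMT5-2 was 14.9-fold lower, which is not a 95% bound.

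By gene, the zinc-finger genes ZXDB and ZXDA had 17 and 6 counts in sgNeg, 2 and 1 with sgPRMT5-1, 0 and 0 with sgPRMT5-2, 5 and 3 with sgWDR77-1, and 5 and 1 with sgWDR77-2. RRAGB, a small GTPase of amino acid signalling on the other side of UBQLN2, had 9 counts in sgNeg, 0 with either PRMT5 sgRNA, 6 in sgWDR77-1 and 3 in sgWDR77-2. The pseudogenes MTHFD1P1 and SSBL2P went against this, with 4 and 0 counts in sgNeg and 5 and 1 in sgPRMT5-1. Of the 9 genes, 6 had fewer summed counts in sgPRMT5-1 than in sgNeg, and 8 had fewer in each of the other 3 knockout groups. Apart from NBDY and ZXDB they held 0 to 9 counts in sgNeg. The share of equally low genes elsewhere with fewer counts is not given, so these numbers do not set the interval apart from such genes. The 9 tested neighbours other than NBDY, which flank the interval, summed to 106 CPM in sgNeg, 109 with sgPRMT5-1, 105 with sgPRMT5-2, 126 with sgWDR77-1 and 107 with sgWDR77-2. The most abundant of them, APEX2, had 542 of 1854 counts of this sum in sgNeg and 705 of 1907 with sgPRMT5-2. Of these 9 genes 7 had negative log2 fold changes in PRMT5KO, from -0.54 to -0.05, with 0 called by limma voom or limma-trend and 1 at an unadjusted limma voom p under 0.05. USP51 had 96 counts in sgNeg, 95 with sgPRMT5-1, 51 with sgPRMT5-2, 95 with sgWDR77-1 and 78 with sgWDR77-2, so a lower value with sgPRMT5-2 was not limited to the interval. The low values of the interval itself lay in several genes.

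**Figure D3:**
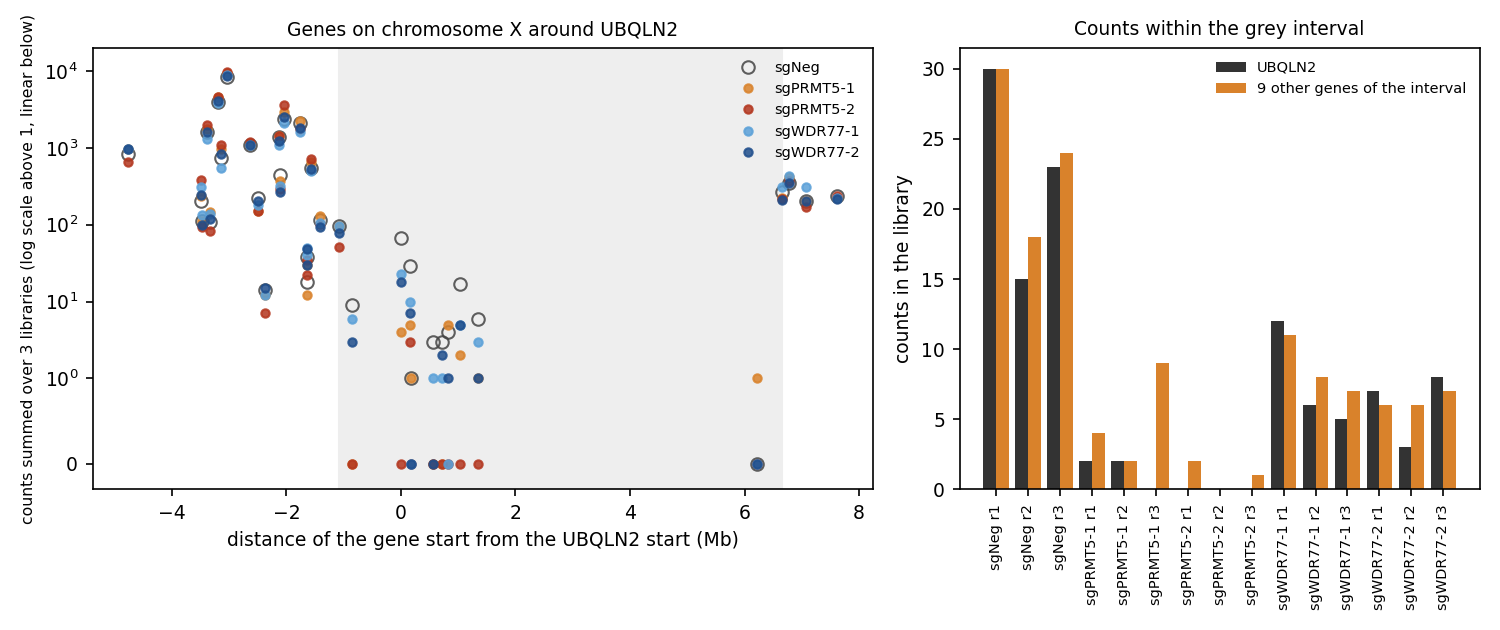
Left, counts summed over the 3 libraries of each group (vertical axis, log above 1) against distance from the UBQLN2 start in Mb, with the interval between USP51 and LINC01278 in grey; right, bars of counts per library for UBQLN2 and for the 9 other genes of the interval. Inside the interval counts are low in the PRMT5 groups, with 0 for UBQLN2 and at most 2 for the other 9 genes in any sgPRMT5-2 library, against 15 to 30 and 18 to 30 in sgNeg.

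The genes most like UBQLN2 were found from the log2 fold changes of the 4 sgRNAs against sgNeg, all of which share the sgNeg libraries. Over 12927 genes, likeness was the root mean square (RMS) difference from UBQLN2, whose own log2 fold changes were -4.00 for sgPRMT5-1, -5.54 for sgPRMT5-2, -1.41 for sgWDR77-1 and -1.80 for sgWDR77-2. The 10 nearest genes had RMS differences of 0.51 to 1.02, against a median of 3.60 over all genes compared. MUC16, a membrane mucin, was nearest (RMS 0.51), with log2 fold changes of -4.63, -5.03, -1.67 and -2.38 in the same order. SPP1, the secreted phosphoprotein osteopontin, followed (RMS 0.64) with -4.72, -4.57, -1.07 and -2.05. GBP6, a guanylate-binding protein, came next (RMS 0.66) with -4.54, -4.35, -1.35 and -1.56. Each of these had deep losses with both PRMT5 sgRNAs and smaller ones with both WDR77 sgRNAs, as the choice of the measure requires. With sgPRMT5-1 and sgPRMT5-2 the mean was 0.311 and 0.165 CPM for MUC16, 0.368 and 0.377 for SPP1, and 0.165 and 0.390 for GBP6. At such levels the log2 fold changes depend on what is added to counts of 0, as for UBQLN2. The likeness of these genes to UBQLN2 thus supports little by itself.

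Against the 3.91 CPM of UBQLN2 in sgNeg, the mean there was 6.78 CPM for MUC16, 11 for SPP1 and 6.02 for GBP6, and it was 3.77 for GALNT5, 3.87 for IGFL2-AS1 and 1.88 for ZNF812P. The keratins KRT15 (RMS 0.78) and KRT13 (RMS 0.88), of basal and of non-cornified squamous epithelium, were more abundant. KRT15 had mean levels of 166 CPM in sgNeg, 19.6 with sgPRMT5-1, 8.61 with sgPRMT5-2, 64.7 with sgWDR77-1 and 59.2 with sgWDR77-2. KRT13 had 43.9, 1.48, 1.22, 6.68 and 9.63 CPM in the same order. The other 5 were the glycosyltransferase gene GALNT5 (RMS 0.75), the pseudogene ZNF812P (0.93), the antisense transcript IGFL2-AS1 (0.93), the prostaglandin dehydrogenase gene HPGD (0.94) and the carnitine acetyltransferase gene CRAT (1.02). With the mean absolute difference as the measure, 8 of these 10 were again among the nearest 10. With the log2 fold changes of limma-trend, which put UBQLN2 at -2.97, -3.61, -1.26 and -1.57, 6 of the 10 were. There KRT15 was nearest, MUC16 was in place 7 and SPP1 in place 14. KRT13 moved furthest of the 10, to place 146 (RMS 1.35). The order thus differed between limma voom and limma-trend, and the cause was not tested. None of the 10 genes lies on chromosome X.

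**Figure D4:**
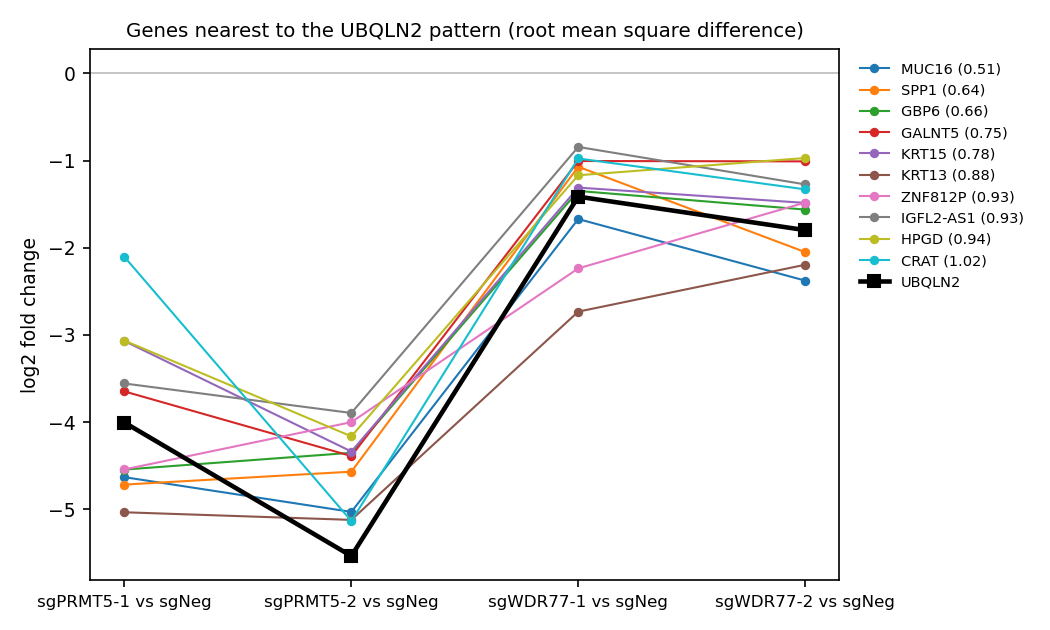
Log2 fold changes against sgNeg (vertical axis) for the 4 sgRNAs (horizontal axis), with a line for UBQLN2 (black squares) and for each of the 10 genes with the smallest RMS difference from it, which the legend gives. All lines are lower at the PRMT5 sgRNAs than at the WDR77 sgRNAs, and UBQLN2 runs from -5.54 in sgPRMT5-2 to -1.41 in sgWDR77-1.

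The partners of ubiquilins were read from 6 lists, each described by counts of limma voom calls and by its median beside that of all genes (-0.01 in PRMT5KO and 0.00 in WDR77KO). The list closest to ubiquilins holds the other shuttle factors and the ubiquitin receptors of the proteasome, of which 7 of 10 were tested. In PRMT5KO 1 was called higher and 0 lower (median log2 fold change 0.14), or 14.3% against 17.0% of all tested genes. The called gene was PSMD2, the proteasome subunit on which ubiquitin-like domains can dock (0.80, SE 0.173, 6 of 6 libraries higher, adjusted p = 0.0107, limma voom). The call was lost without sgNeg replicate 1 (0.0731) or replicate 2 (0.0659), in a range of 1.45e-05 to 0.0731. The receptors PSMD4 (0.30, adjusted p = 0.0514) and ADRM1 (0.40, adjusted p = 0.0578) lay just outside the threshold of limma voom. Both were called under upper quartile scaling, in a single fit over the 15 libraries, by limma-trend, and without sgPRMT5-1 replicate 1 or replicate 2, which made 3 called genes in each. The shuttle factors RAD23B (0.14, adjusted p = 0.140), DDI2 (-0.16, 0.231) and NUB1 (0.10, 0.366) were not called by limma voom. These shuttle factors thus lay near 0 and the larger values belonged to proteasome subunits.

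Of 33 subunits of the 26S proteasome, 32 were tested and 18 were called higher in PRMT5KO and 0 lower by limma voom, with a median of 0.32. This was 56.3% of the subunits, against 8.73% of all tested genes called higher and 8.30% called lower. At an unadjusted p under 0.05 limma voom counted 27, against 33.6% of all tested genes, and limma-trend called 21 higher and 0 lower, against 9.79% of all genes called higher. With sgPRMT5-1 alone 3 were called higher, where 1.52% of all tested genes were, and with sgPRMT5-2 alone 25, where 20.9% were, and none were called lower with either. The lid subunit PSMD11 averaged 171 ± 26.1 CPM over the 3 sgNeg libraries and 271 ± 32.8 over the 6 of PRMT5KO (± SD) and rose by a log2 fold change of 0.65 (SE 0.114, 6 of 6 higher, adjusted p = 0.00423, limma voom), and was called under every alternative. PSMD12 (0.46, SE 0.0925, 6 of 6 higher, adjusted p = 0.00773) and the deubiquitinase subunit PSMD14 (0.44, SE 0.0898, 6 of 6 higher, adjusted p = 0.00815) also rose by limma voom. Both calls were lost without sgNeg replicate 1 (0.0654 and 0.0624, the largest values over their alternatives, from 0.00279 and 0.000367). PSMA4, a subunit of the core particle, was at -0.05 (adjusted p = 0.724, limma voom). The number of subunits called higher was 9 with library totals alone, where 5.54% of all genes were called higher, and 8 without sgPRMT5-1 replicate 3 (5.92%). It was 1, 3 and 12 without sgNeg replicates 1, 2 and 3 in turn, where 1.12%, 1.47% and 3.68% of all genes were called higher. It was 7, 8 and 7 without the sgPRMT5-2 libraries in turn (4.69%, 4.32% and 4.92%). The median stayed between 0.25 and 0.39 in these fits and none were called lower, but without sgNeg replicate 1 the single call is too few to set the subunits apart from all genes.

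Other routes also handle ubiquilin clients. Of 31 genes of ER-associated degradation and the VCP segregase, 30 were tested and limma voom called 4 higher and 1 lower in PRMT5KO (median 0.11), or 16.7%, about the 17.0% of all tested genes. With sgPRMT5-1 alone limma voom and limma-trend called 0 of the 30, with 4 at an unadjusted limma voom p under 0.05, and with sgPRMT5-2 alone limma voom called 10 higher and 4 lower, or 46.7% against 40.1% of all genes. HERPUD1, an ER membrane protein with a ubiquitin-like domain, rose by 0.59 (SE 0.158, 6 of 6 higher, adjusted p = 0.0240, limma voom) and VCP by 0.32 (SE 0.0864, 6 of 6 above the sgNeg mean, adjusted p = 0.0243, limma voom). In sgPRMT5-1 the adjusted p was 0.119 for HERPUD1 and 0.192 for VCP, so neither was called there. HERPUD1 was not called without any of the sgNeg libraries (0.0925, 0.110 and 0.0681), in a range of 0.000143 to 0.110. VCP was not called without sgNeg replicate 1 (0.112) or replicate 2 (0.119) or any of the sgPRMT5-2 libraries (0.0522, 0.0548 and 0.0502), in a range of 0.00844 to 0.119. The calls higher numbered 0, 0 and 1 without sgNeg replicates 1, 2 and 3, where 1.12%, 1.47% and 3.68% of all genes were called higher. They numbered 8 and 7 without sgPRMT5-1 replicates 1 and 2 (13% and 11%), and 1 without any of the sgPRMT5-2 libraries (4.69%, 4.32% and 4.92%). The gene called lower was UBXN6, a VCP cofactor (-0.32, SE 0.0957, 6 of 6 lower than the sgNeg mean, adjusted p = 0.0345, limma voom), and 0 were called lower with the replicate number as a block, with no filter on low counts, or without any 1 of the sgNeg or sgPRMT5-2 libraries. Among 28 chaperone and membrane targeting genes, 27 were tested, with 9 called higher and 1 lower by limma voom (median 0.20), or 37.0% of them against 17.0%. With sgPRMT5-1 alone 3 were called higher and 0 lower, or 11.1% against 3.76% of all genes, and with sgPRMT5-2 alone 15 higher and 2 lower, or 63.0% against 40.1%. HSPA4, an HSP70 nucleotide exchange factor, rose by 0.41 (SE 0.0724, 6 of 6 higher, adjusted p = 0.00454, limma voom), and was called under every alternative. HSPA5, the HSP70 of the ER, rose by 0.45 (SE 0.0886, 6 of 6 higher, adjusted p = 0.00716, limma voom), a call lost without sgNeg replicate 2 (0.0521, the largest over its alternatives, from 0.000102). The gene called lower was the small heat shock gene HSPB1 (-0.35, adjusted p = 0.0313, limma voom, 6 of 6 lower than the sgNeg mean), which was singled out after its value was seen. Without sgNeg replicate 1 or replicate 2 the chaperones called higher numbered 3, where 1.12% and 1.47% of all genes were called higher, and HSPB1 was not called without sgNeg replicate 1, sgNeg replicate 3 or any of the sgPRMT5-2 libraries.

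Of 19 selective autophagy genes, 16 were tested and 2 were called higher in PRMT5KO by limma voom (median 0.02, or -0.04 with library totals alone), which is 12.5% of them against 17.0% of all tested genes. They were the receptor gene SQSTM1 (0.59, SE 0.133, 6 of 6 higher, adjusted p = 0.0125) and the ATG8 gene MAP1LC3B (0.55, SE 0.124, 6 of 6 higher, adjusted p = 0.0125). SQSTM1 was not called without sgNeg replicate 1 (0.0660) or replicate 2 (0.0790), in a range of 0.000266 to 0.0790, and MAP1LC3B was not called without any of the sgNeg libraries (0.0512, 0.0657 and 0.0616), in a range of 0.000349 to 0.0657. With sgPRMT5-1 alone, where 3.76% of all genes were called, limma voom called 0 of the 16 (SQSTM1 0.0574 and MAP1LC3B 0.0767), 2 had an unadjusted p under 0.05, and limma-trend called 1 higher. With sgPRMT5-2 alone limma voom called 4 higher and 2 lower, or 37.5% against 40.1% of all genes. PEG10, a gag-like protein that UBQLN2 helps to degrade, averaged 147 ± 20.8 CPM over the 3 sgNeg libraries, 99.9 ± 26.1 over the 6 of PRMT5KO and 106 ± 18.5 over the 6 of WDR77KO (± SD). PEG10 mRNA fell in PRMT5KO with a log2 fold change of -0.60 (SE 0.176, 6 of 6 below the sgNeg mean, adjusted p = 0.0331, limma voom). The call was lost with the replicate number as a block (0.0599), without any of the sgNeg libraries (0.0611, 0.119 and 0.105) and without any of the sgPRMT5-2 libraries (0.0680, 0.0622 and 0.0651), in a range of 0.000925 to 0.119. By sgRNA, PEG10 was at -0.25 with sgPRMT5-1 (SE 0.103, adjusted p = 0.188) and -0.94 with sgPRMT5-2 (SE 0.0945, adjusted p = 2.04e-07), and lower with sgPRMT5-2 than with sgPRMT5-1 by -0.69 (SE 0.0770, adjusted p = 1.95e-06, limma voom). The call in PRMT5KO thus rested on sgPRMT5-2. In WDR77KO PEG10 was at -0.48 (SE 0.140, 6 of 6 below the sgNeg mean, adjusted p = 0.0753, limma voom). It passed there in a single fit over the 15 libraries (0.00963), without sgWDR77-1 replicate 1 (0.0293) and without sgWDR77-2 replicate 1 (0.0401), in a range of 0.00963 to 0.340. The related RTL8A (0.42, adjusted p = 0.0735) and RTL8C (0.29, adjusted p = 0.273) were not called in PRMT5KO by limma voom, though RTL8A passed in a single fit over the 15 libraries (0.0393) and without sgPRMT5-1 replicate 1 (0.0175), and with sgPRMT5-2 alone RTL8A was called higher (0.49, adjusted p = 0.00148).

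In WDR77KO, where 3.39% of all tested genes were called, limma voom called 0 genes in each of the 6 lists, and limma-trend also called 0. A single fit over the 15 libraries, which called 8.44% of all genes, called 1 proteasome subunit (PSMD11), 3 chaperone genes (HSPA4, HSPA5 and HSPA9) and PEG10 and TOLLIP, and 2 chaperone genes (HSPA4 and HSPA9) were called without sgWDR77-1 replicate 3. With no filter on low counts, HSPA5 (0.32, adjusted p = 0.0265) was called higher, as was UBQLNL (0.0266), which had 0 counts in sgNeg and so has no measured fold. At an unadjusted p under 0.05, limma voom counted 0 shuttle and receptor genes, 2 proteasome subunits, 3 genes of ER-associated degradation, 4 chaperone genes, 4 autophagy genes and 2 PEG10 and RTL8 genes, where 16.2% of all tested genes were under it. The list medians were 0.04, -0.04, 0.03, -0.01, -0.01 and 0.02 in that order. The single sgRNAs differed from the pooled result. With sgWDR77-2, where 4.97% of all genes were called, limma voom called the following higher, PSMD11 (0.57, adjusted p = 0.0136), HERPUD1 (0.43, 0.0236), HSPA4, HSPA5, HSPA9 and BAG2 among the chaperones (0.38 to 0.49, 0.00456 to 0.0347) and SQSTM1 (0.46, 0.0256), and called PEG10 lower (-0.42, 0.0490). With sgWDR77-1, where 2.71% were called, the core subunit PSMA7 was called lower (-0.77, adjusted p = 0.0386) and no other gene of the lists was, with limma-trend calling 2 proteasome subunits lower. At an unadjusted p under 0.05 limma voom counted there 0 shuttle and receptor genes, 13 proteasome subunits, 2 genes of ER-associated degradation, 3 chaperone genes, 4 autophagy genes and 1 of the PEG10 and RTL8 genes, against 17.7% of all genes. PSMA7 and BAG2 were singled out after their values were seen. The median of the proteasome subunits was -0.15 with sgWDR77-1 and 0.16 with sgWDR77-2, of opposite sign. Between these sgRNAs directly, limma voom and limma-trend called 0 of 32 subunits (median 0.37), and 21 had an unadjusted limma voom p under 0.05, against 12.5% of all genes. PSMD11 was at 0.38 in WDR77KO (SE 0.141, adjusted p = 0.178, limma voom) and PSMD2 at 0.13 (SE 0.166, adjusted p = 0.781, limma voom).

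**Figure D5:**
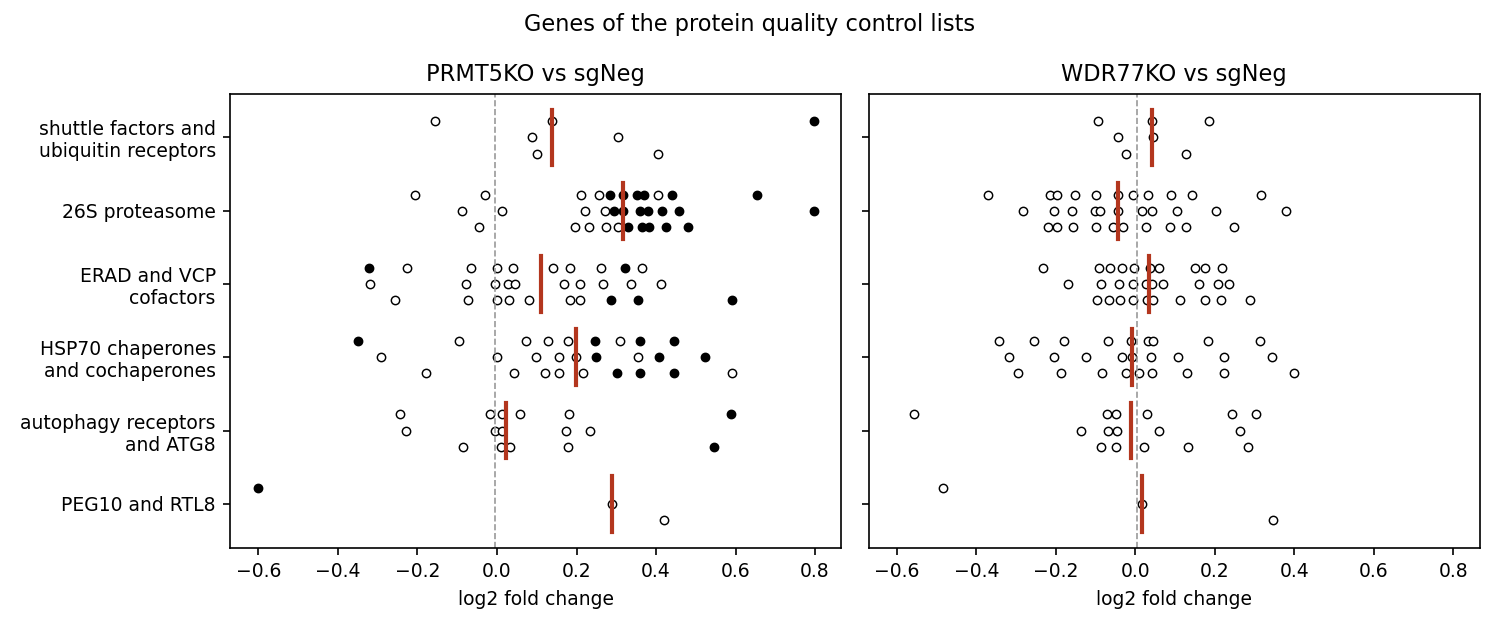
Log2 fold changes against sgNeg (horizontal axis) of the tested genes of the 6 lists (rows) in PRMT5KO and WDR77KO, with filled points for an adjusted p under 0.05 by limma voom, a red bar for the list median and a dashed line for the median of all genes. The proteasome subunits have 18 filled points and a median of 0.32 in PRMT5KO, and none filled and a median of -0.04 in WDR77KO.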

How the data were processed

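mRNA-seq of HSC-5 was analysed from the deposited counts of 15 libraries. The authors used STAR to align single-end reads of 76 bases with hg38 and HTSeq to count them per gene, without normalization. Which annotation was counted and whether strand was used are not given in the sources used here. The summary entries of the counter held 2.75% to 7.16% of reads outside genes, 7.09% to 7.93% ambiguous reads and 9.49% to 13.1% reads placed more than once, and stayed out of library sizes and tests. No replicate pair agreed within sampling noise (chi-square over its degrees of freedom 1.55 to 17.7, 15 pairs), so every library counted once.

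Counts were scaled with TMM factors (trimming 0.3 by log ratio and 0.05 by mean level). Genes reaching a mean of 3 normalized counts entered limma voom (limma 3.58.1, R 4.3.3) with Benjamini-Hochberg adjustment at 0.05. The negative binomial test of the study was replaced by limma voom, since the format of the tables kept the unit check from reading them as counts. PRMT5KO and WDR77KO pooled the 2 sgRNAs of a gene, and each fit held the libraries compared. Of the gene identifiers, 60507 of 60649 matched GENCODE v44 (GRCh38), which gave positions, lengths and the sequences compared. Counting intervals were exact at 95%, and the floor was 3 counts. Python 3.11.15, numpy 2.4.6, pandas 2.3.3, scipy 1.17.1, matplotlib 3.10.9 and Biopython 1.88 were used, and the fits were tested on simulated data.

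The named genes were the ubiquilins, the targeted genes, every gene of a list with at most 8 tested genes, otherwise the 3 smallest adjusted p in each knockout and the most abundant gene, 5 tested neighbours on each side of UBQLN2, and the 10 nearest patterns among genes with at least 1 CPM in sgNeg. Alternatives were RLE, upper quartile and library totals alone as scaling, no filter or a mean of at least 10, a replicate block, a single fit over the 15 libraries, limma-trend with a prior count of 2, and each library left out. The members and lists were chosen with earlier results of these data known. The planned tests of UBQLN2 in the WDR77 knockouts against sgNeg are not used, since its choice rested on the sgNeg libraries. The comparison of PRMT5KO with WDR77KO and the interval on chromosome X, with its alternatives (without NBDY, protein-coding genes alone, each library left out), and the likeness to UBQLN2 by limma-trend, were added after the data were seen. Some items are not reported here.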

Additional observations from a re-analysis of the deposited data

Results flagged for a closer look

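UBQLN4 in sgWDR77-2 replicate 1 lay at 88.2 CPM, apart from the other 5 WDR77KO libraries at 61.6 to 70.5 CPM. Its gap to the nearest library was 0.665 of the whole range of the 6 libraries, more than the 95% limit of Dixon's gap test. Gaps of this size arise by chance in about 1 of 20 groups, and 12 groups were examined.

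The effect of the PRMT5 sgRNAs on UBQLN4 differed between sgRNAs, with a log2 fold change of 0.34 for sgPRMT5-2 over sgPRMT5-1 (SE 0.0859, 3 of 3 libraries higher, adjusted p = 0.00770, limma voom with Benjamini-Hochberg adjustment).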

How the results depend on the processing

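Of the values of UBQLN2, UBQLN1 and UBQLN4 over the alternatives, 378 kept their direction and their side of the threshold or moved by less than the replicate spread, 14 lost a call, 1 gained one and 4 moved, and no called value changed sign. Of values without a call, UBQLN1 in sgWDR77-1 (0.03) went to -0.12 without sgWDR77-1 replicate 1. Between the WDR77 sgRNAs UBQLN4 (0.13) went to -0.01 without sgWDR77-2 replicate 1 and UBQLN2 (-0.36) to 0.08 without sgWDR77-2 replicate 2. For the other named genes 1641 were as before or stayed without a call, 57 of them with the other sign and at most 0.15 from 0, 55 lost a call and 32 gained one. The 10 genes nearest to the UBQLN2 pattern moved with limma-trend, which kept 6 of them. The cause was not tested in any of these cases.

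Upper quartile scaling brought UBQLN1 past the threshold in PRMT5KO (0.20). With library totals alone UBQLN1 lost its call in sgPRMT5-2 (0.11), 11 genes were called between the WDR77 sgRNAs, and the share of calls that were higher went from 51.3% to 34.0% in PRMT5KO, 40.4% to 27.8% in sgPRMT5-1, 52.0% to 39.5% in sgPRMT5-2 and 57.1% to 37.7% in PRMT5KO against WDR77KO. With a single fit over the 15 libraries UBQLN1 lost its call in sgPRMT5-2 (0.20) and UBQLN4 its call between the PRMT5 sgRNAs (0.34), and 1187 genes were called in WDR77KO, 1333 in sgWDR77-1, 1059 between the PRMT5 sgRNAs, 339 between the WDR77 sgRNAs and 3813 in PRMT5KO against WDR77KO. With limma-trend UBQLN2 was at -3.30 in PRMT5KO, -2.97 in sgPRMT5-1, -3.61 in sgPRMT5-2 and -1.82 in PRMT5KO against WDR77KO. Without a filter on low counts 987 genes were called in sgPRMT5-1 and 127 between the WDR77 sgRNAs.

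With the replicate block UBQLN4 was at 0.42 in PRMT5KO (adjusted p = 0.0511), no longer called by limma voom, while 1427 genes were called in sgPRMT5-1 and 369 in sgWDR77-2. Libraries with the same number correlated in their deviations by -0.34 to 0.28 over 30 pairs, 4 of them over 0.1, so the numbers do not pair the libraries, and the block changed no other call of the ubiquilins.

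With 1 library left out, the genes called numbered 483 to 3562 in PRMT5KO, 199 to 677 in WDR77KO, 211 to 510 in sgPRMT5-1, 56 to 1003 in sgWDR77-1, 293 to 661 in sgWDR77-2, 1429 to 4711 between the PRMT5 sgRNAs, 0 to 156 between the WDR77 sgRNAs and 876 to 3178 in PRMT5KO against WDR77KO. UBQLN4 lay at 0.36 to 0.47 in PRMT5KO and 0.30 to 0.41 between the PRMT5 sgRNAs, UBQLN1 at 0.16 to 0.24 in sgPRMT5-2, and UBQLN2 at -1.91 to -1.39 in WDR77KO and -2.09 to -1.35 in sgWDR77-2. Where 2 libraries remained in a group, the fit pooled their spread with that of the other group. UBQLN2 had at most 30 counts in a library, so depth limits its fold changes. No difference of UBQLN2 between the WDR77 sgRNAs was detected (-0.36, SE 0.551), and whether greater depth would show one was not tested. Between the PRMT5 sgRNAs UBQLN2 was not tested.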
